A study of Rattus norvegicus with 14 samples.

Results

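Described here are 9 genes of the Notch pathway in rat dentate gyrus: the Fringe enzymes Rfng and Lfng, the receptors Notch1, Notch2 and Notch3, the ligand Jag1, the targets Hes1 and Hes5, and the gamma-secretase subunit Psen2. Every probe set whose annotation names one of these genes alone was taken, which gave 12 of the 15866 probe sets on the array that are not controls, and 9 of the 10411 genes that a probe set names alone. The genes were chosen from the learning minus control difference of Rfng, together with pathway partners, to see whether that difference goes with receptors or targets. Learning minus control differences of these genes are therefore given as a description, with standard errors and without tests.

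Notch signalling works by contact between neighbouring cells. A Delta or Jagged ligand on one cell binds a Notch receptor on the next, the receptor is cut by ADAM proteases and by gamma-secretase, and the freed intracellular part joins the DNA-binding protein RBPJ to switch on genes such as Hes1 and Hes5. Fringe enzymes add a sugar to the receptor in the Golgi and so change how it responds to each type of ligand. In the hippocampus the pathway is known for keeping dentate neural stem cells undifferentiated, and it also acts in astrocytes and in the walls of blood vessels.

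The tissue came from male Long-Evans rats aged 3 to 4 months, with 7 rats per group and 1 Affymetrix RAE230A array per rat. All 14 rats had been trained in a standard water maze 2 to 3 weeks earlier and then had 1 session of 8 trials at another site. The learning group swam to a visible platform that stayed in place among spatial cues, and the control group to a visible platform that moved while informative cues were lacking. All had a probe swim of 90 s 1 h later and were killed straight after it, so that both groups had swum and no group was left untrained. The dentate gyrus had been microdissected from the hippocampus, a bulk tissue in which fewer cells of a type and less RNA per cell cannot be told apart. Of 7 granule cell markers 4 reached a mean of 4 on the log2 scale, the brightest being Calb1 at 10.8 and Prox1 at 10.3. All 9 astrocyte markers reached it, the brightest being Apoe at 13.5 and S100b at 13.1. Astrocytes, glia that use Notch, were thus part of the dissected tissue.

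The RBPJ motif, by which active Notch reaches its targets, shows which of the 9 genes carry the letters of a direct target near their start. In RefSeq promoters of build GRCr8, from 250 bases before to 50 after each gene start, all 9 genes had an entry. The motif GTGGGAA was searched on both strands (TTCCCAC on the other). It was found in 3 of the 9, in Hes1, Hes5 and Lfng, against 6.19% of 27457 rat promoters of the same length. Hes5 held it at 2 places, and 0.222% of promoters held it at 2 or more. Hes1 and Hes5 were listed as Notch targets, and Lfng is known as one in some tissues. The share among the 9 genes is therefore a description and carries no weight of its own. No match was found in this window of Rfng. The stretches from position -160 to -61 relative to the start are shown 5′ to 3′ on the gene's strand, with the motif in capitals. They lie at chr11:84213106-84213205 on the minus strand for Hes1, chr5:170804417-170804516 on the plus strand for Hes5, and chr12:19152979-19153078 on the minus strand for Lfng.
Hes1: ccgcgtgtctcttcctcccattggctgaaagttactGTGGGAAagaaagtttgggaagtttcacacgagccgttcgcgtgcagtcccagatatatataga
Hes5: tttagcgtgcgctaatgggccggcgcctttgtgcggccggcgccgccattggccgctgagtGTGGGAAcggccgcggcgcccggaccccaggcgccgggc
Lfng: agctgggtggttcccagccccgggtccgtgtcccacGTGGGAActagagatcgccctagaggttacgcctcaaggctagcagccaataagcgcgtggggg
In Hes1 and in Lfng the motif begins at position -124, in the Hes5 stretch at -99, and the other Hes5 match lies at -242. A match in these letters is a description of the sequence and not a measured site.

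Not every member gave a usable signal. Values are log2 expression values made with GCRMA, a method that compresses the spread of dim probe sets. A probe set was tested where its mean over the 14 arrays reached 4. Of the 12 member probe sets 6 reached it, namely both of Rfng, both of Notch1, 1 of Hes5 and that of Psen2. The other 6 stayed below, among them the single probe sets of Lfng, Notch2, Notch3, Jag1 and Hes1. The Notch3 values of all 14 rats lay within 0.019 log2 units, between 1.37 and 1.39, and those of Notch2 within 0.038, between 2.42 and 2.45. Such flat values carry next to no information on these receptors in either group. Jag1, at a mean of 3.99, was just under the limit and still varied over 0.61 log2 units. Levels of different probe sets are not compared here, because each set binds its transcript with its own strength.

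**Figure D1:**
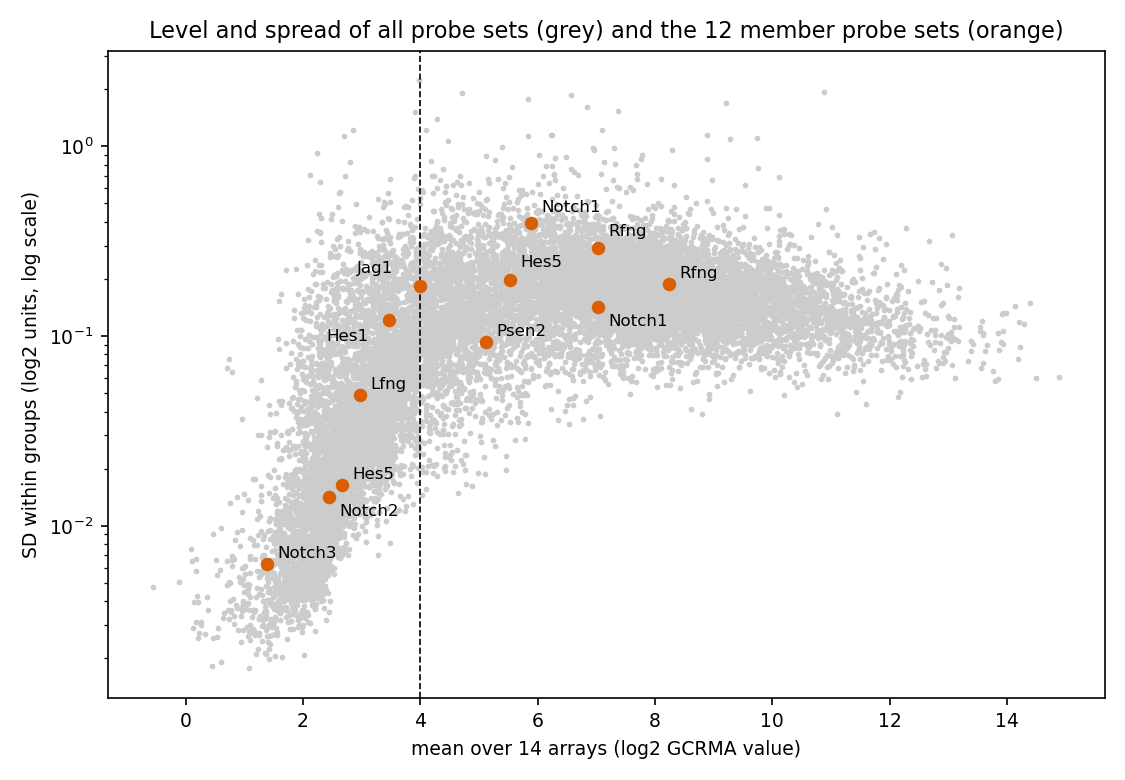
Each grey point is 1 of 15866 probe sets, with its mean over 14 arrays on the x axis (log2 GCRMA value) and its SD within groups on the y axis (log2 units, log scale); orange points are the 12 member probe sets and the dashed line marks a mean of 4. Notch2, Notch3 and the dimmer Hes5 probe set sit in the lower left, where spread is compressed to below 0.02, while both Notch1 and both Rfng sets lie right of the line.

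Rfng encodes Radical fringe, which adds N-acetylglucosamine to fucose on Notch receptors. On its brighter probe set the control rats lay between 7.78 and 8.15 with a median of 8.07, and the learning rats between 8.14 and 8.73 with a median of 8.47. The groups touch only at 1 rat of each kind: 6 of 7 learning rats lay above the highest control rat, control replicate 2, and learning replicate 1 lay just below it. The difference was 0.44 ± 0.10 log2 units (SE, n = 7 per group), or 1.36-fold higher in learning rats, with a 95% interval from 0.24 to 0.64. Among the learning rats the values themselves were spread, with replicates 4, 5 and 6 above 8.6 and replicates 1 and 3 below 8.3.

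The dimmer Rfng probe set differed less. Its control values ran from 6.65 to 7.12 with a median of 7.07, and its learning values from 6.47 to 7.57 with a median of 7.15. Here the groups overlapped widely, since learning replicate 3 was the lowest rat of all, and 4 of 7 learning rats exceeded the highest control rat. The difference was 0.12 ± 0.14 (SE, n = 7 per group), with an interval from -0.18 to 0.42, and it was 0.04 without learning replicate 4 and 0.22 without learning replicate 3. Averaging both probe sets of the gene gave a difference of 0.28. The difference between the 2 probe sets was not tested.

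Lfng encodes Lunatic fringe, which acts on the same fucose residues and is itself known as a Notch target in some tissues. Its single probe set read between 2.90 and 2.98 in control rats and between 2.94 and 3.09 in learning rats, with medians of 2.96 and 2.97. The groups overlapped, and 3 of 7 learning rats lay above the highest control rat. The difference was 0.05 ± 0.03 (SE, n = 7 per group) on a probe set that spanned 0.20 log2 units in all.

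**Figure D2:**
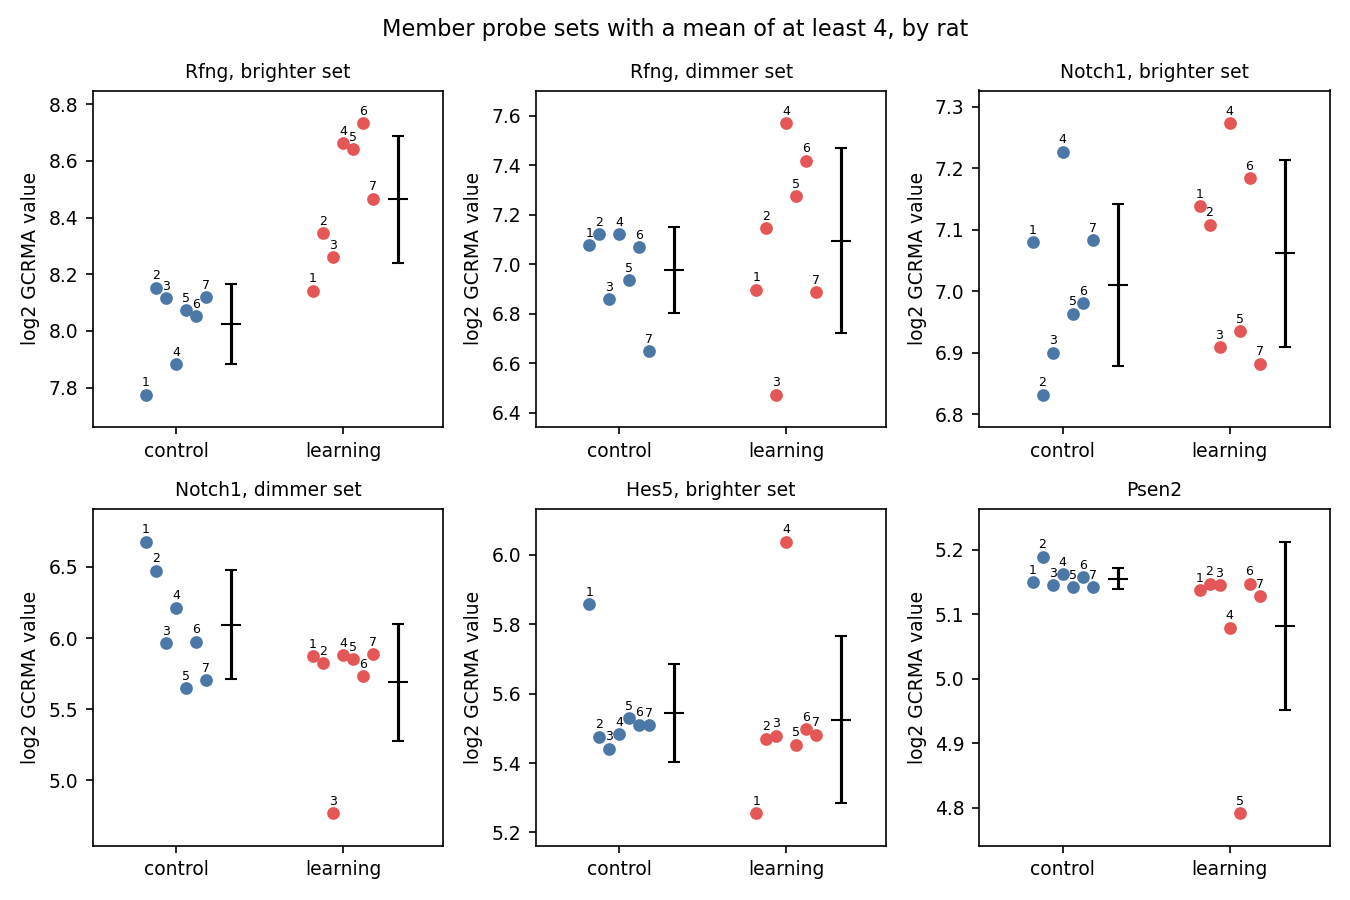
Log2 GCRMA values of the 6 member probe sets whose mean reached 4, with 1 point per rat, labelled by replicate number, and the group mean ± SD (bars, n = 7) beside the points. The brighter Rfng set is shifted upwards in learning rats, from a mean of 8.02 to 8.46, while Hes5, Psen2 and the dimmer Notch1 set hold single rats far from their group.

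Among the receptors only Notch1, the main Notch receptor of neural stem cells, was measured above the limit. On its brighter probe set control rats lay between 6.83 and 7.23 with a median of 6.98 and learning rats between 6.88 and 7.27 with a median of 7.11. The groups overlapped almost fully. The difference was 0.05 ± 0.08 (SE, n = 7 per group), with an interval from -0.11 to 0.21.

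The dimmer Notch1 probe set went the other way. Its control values ran from 5.65 to 6.68 with a median of 5.98, and its learning values from 4.77 to 5.89 with a median of 5.85. Of the control rats 5 of 7 lay above every learning rat, and replicates 5 and 7 lay below all learning rats but replicate 3. The difference was -0.41 ± 0.19 (SE, n = 7 per group), with an interval from -0.81 to 0.0025. It was -0.25 without learning replicate 3, whose value of 4.77 stood apart from the next lowest at 5.73. Within groups the 2 Notch1 probe sets hardly varied together (Pearson r = 0.23, permutation p = 0.459; Spearman rho = -0.0022, permutation p = 1; 14 arrays with group means removed). Without the 2 arrays farthest from the median of the brighter set r was 0.37 (permutation p = 0.287). The 2 sets thus give no single direction for Notch1, and their mean differed by -0.18.

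Notch2 and Notch3, the latter the receptor of vascular smooth muscle and pericytes, differed by 0.0058 and -0.0037 log2 units on their flat probe sets. Of the 10 mural cell markers listed, 4 reached the limit, among them Myh11 at 6.03 and Acta2 at 5.72. Their mean spanned 4.90 to 5.71 among controls and 4.70 to 5.63 among learners.

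Jag1 encodes the ligand Jagged1. Control rats lay between 3.76 and 4.07 with a median of 3.96, and learning rats between 3.80 and 4.37 with a median of 3.97. The groups shared most of their range, apart from learning replicates 1 and 3 at 4.37 and 4.36, which lay above every other rat. The difference was 0.13 ± 0.10 (SE, n = 7 per group), falling to 0.08 without either of these 2 rats.

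Of the targets, Hes5 is the repressor most tied to Notch in neural stem cells and astrocytes. On its brighter probe set control rats lay between 5.44 and 5.86 with a median of 5.51 and learning rats between 5.26 and 6.04 with a median of 5.48. Most rats of both groups sat close to 5.5, and the extremes were control replicate 1 at 5.86, learning replicate 4 at 6.04 and learning replicate 1 at 5.26. The difference was -0.02 ± 0.10 (SE, n = 7 per group), with an interval from -0.23 to 0.19, and single rats moved it between -0.10 and 0.03. The second Hes5 probe set was flat, between 2.62 and 2.68 in all rats.

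Hes1, a related repressor used in many tissues, read between 3.38 and 3.84 in control rats with a median of 3.45, and between 3.34 and 3.45 in learning rats with a median of 3.42. Control replicates 3 and 4, at 3.84 and 3.68, were the only rats above 3.5. The difference was -0.12 ± 0.06 (SE, n = 7 per group), and -0.07 without control replicate 3. Control replicate 3 was also the highest array in the mean of the mural markers, at 5.71, of the 6 measured meningeal markers, at 8.27, of the choroid plexus markers, at 7.98, and of the neural progenitor markers, at 8.67. With a marker mean as covariate the Hes1 difference was -0.10 for mural, -0.10 for meningeal, -0.08 for CA1 and -0.03 for choroid plexus markers. The choroid plexus mean did not overlap between the groups, so that last fit cannot tell it apart from group. No fit was made with the progenitor mean, whose part in the Hes1 difference was not tested.

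Psen2 encodes presenilin 2, one of the alternative catalytic subunits of gamma-secretase. Control rats lay within 5.14 to 5.19 and learning rats within 4.79 to 5.15, with medians of 5.15 and 5.14. All but learning replicates 4 and 5 (5.08 and 4.79) lay between 5.13 and 5.19. Within this narrow range 4 of 7 control rats lay above every learning rat. In all, 4 of 7 learning rats lay below every control rat. The difference was -0.07 ± 0.06 (SE, n = 7 per group), and -0.02 without learning replicate 5.

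Read by role, the brighter Rfng probe set differed by 0.44 and the dimmer by 0.12, the latter with an interval from -0.18 to 0.42. The differences of the measured receptor and target sets lay between -0.41 and 0.05. Learning rats were higher on 3 and lower on 3 of the 6 tested member probe sets. The median difference was 0.02, against a median of 0.0050 over all 9387 tested probe sets. The groups were free of overlap in 0 of the 6, where 0.405% of all tested probe sets (38) showed no overlap. Since the Rfng difference chose the genes, these counts carry no weight of their own.

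**Figure D3:**
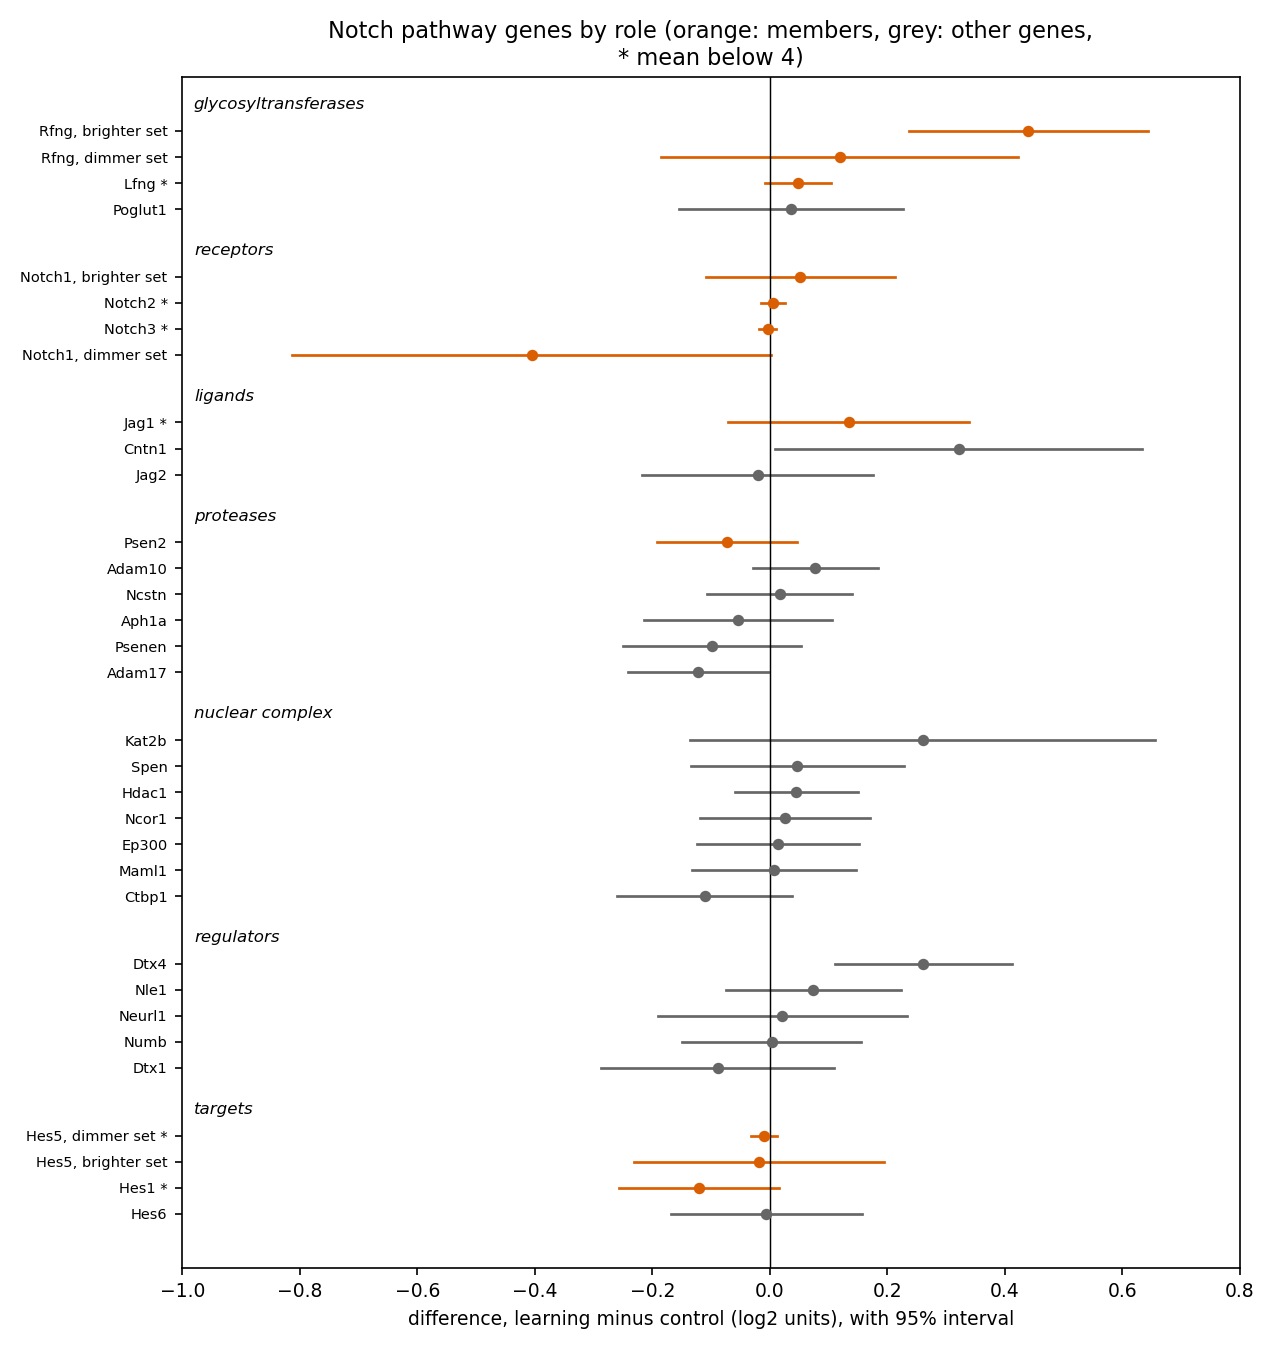
Learning minus control differences (log2 units, x axis) with 95% intervals from the limma fit for the 12 member probe sets (orange) and the 21 tested other genes of the pathway (grey), ordered by role; an asterisk marks a mean below 4. The interval of the brighter Rfng set runs from 0.24 to 0.64 and that of the dimmer Notch1 set from -0.81 to 0.0025. The intervals of all target sets drawn cross 0.

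The other genes of the pathway were taken from a list of 52 genes, namely the receptor Notch4 and ligands, glycosyltransferases, proteases, nuclear cofactors, regulators and targets. Of these 31 had a probe set of their own, and 21 reached a mean of 4 and were tested. Notch4 stayed below that limit on both of its probe sets. In limma's moderated test 0 of 21 passed an adjusted p of 0.05 in either direction, as did 0% of all tested probe sets. At an unadjusted p below 0.05 there were 3 of 21, or 14.3%, close to the 13.1% (1230) of all tested probe sets. On the probe set of highest mean of each gene, learning rats were higher in 14 and lower in 7 of the 21. The median difference was 0.02.

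Dtx4, an E3 ubiquitin ligase of the Deltex family that acts on Notch, had the smallest p of the list. It averaged 7.44 ± 0.14 in control and 7.70 ± 0.12 in learning rats (SD, n = 7 each), a difference of 0.26 ± 0.07 (SE). All 7 learning rats lay above the control mean, with an adjusted p of 0.209 in limma. Cntn1, which encodes contactin 1, a neuronal adhesion protein reported as a Notch ligand, was at a difference of 0.32 ± 0.15 (SE; adjusted p = 0.365 in limma), again with 7 of 7 learning rats above the control mean. Adam17, a protease of the first receptor cut, was at -0.12 ± 0.06 (SE; adjusted p = 0.370 in limma), with 7 of 7 below, at a mean of 4.06 close to the limit. Its relative Adam10 was at 0.08 ± 0.05 (SE), with a second probe set below the limit at -0.02.

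The nuclear partners Ctbp1, a corepressor, and Kat2b, an acetyltransferase, were at -0.11 ± 0.07 and 0.26 ± 0.19 (SE). For Adam10, Ctbp1 and Kat2b the adjusted p in limma was 0.512 or more. Of the 7 tested nuclear cofactors 6 were higher and 1 lower, with a median difference of 0.03. Ncor1, counted as higher at 0.03, had a second tested probe set at -0.11. Of the 5 tested proteases 2 were higher and 3 lower, with a median of -0.05. The only other target above the limit, Hes6, differed by -0.0061 ± 0.08 (SE). Rbpj itself read 3.17 and the remaining Fringe gene, Mfng, 2.84, both below the limit. The 3 genes under 0.05 unadjusted became 1, Dtx4, when control replicate 2, 4 or 5 or learning replicate 1, 6 or 7 was left out. The choroid plexus marker mean did not overlap between the groups, so as a covariate it cannot be told apart from group. With it Dtx4 was no longer among the genes under 0.05 and the 1 gene was Spen, a corepressor. There were 4 without control replicate 6 and with the CA1 mean as covariate.

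Whether Rfng goes with its partners can also be read among rats of 1 group, which the choice of genes did not use. After removal of the group means, the brighter Rfng probe set was correlated with the 11 other member probe sets over 14 arrays. In permutation tests with 100000 shuffles within groups 0 of the 11 correlations passed an adjusted p of 0.05, and 0 were below 0.05 unadjusted. With the receptors r was -0.08 (rho = 0.0066) for the brighter and 0.0037 (rho = -0.05) for the dimmer Notch1 set, with permutation p of 0.811 and 0.992 and adjusted p of 0.903 and 0.992. These values were not steady: without learning replicates 4 and 6, the arrays farthest from the Rfng median, r with the brighter Notch1 set was -0.63 (permutation p = 0.0400, adjusted p = 0.440), and with the probe sets of each gene averaged it was 0.50. With the target Hes5 r was 0.21 (rho = 0.21; permutation p = 0.616, adjusted p = 0.903), made up of -0.77 in control rats and 0.57 in learning rats (exact permutation p = 0.0673 and 0.144). It was 0.52 without control replicate 1, -0.03 without learning replicate 1, -0.11 without learning replicate 4 and -0.23 without learning replicates 4 and 6. With Hes1 r was 0.07 (rho = 0.12; permutation p = 0.821, adjusted p = 0.903).

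Between the 2 Rfng probe sets r was 0.50 and rho 0.56 (permutation p = 0.128 and 0.0752, adjusted p = 0.802 and 0.827). Without learning replicates 4 and 6 r was 0.19 (permutation p = 0.623). Within learning rats alone r was 0.79 (exact permutation p = 0.0363, adjusted p = 0.399 over 22 relations within groups), and within control rats it was -0.46 (exact permutation p = 0.317).

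Of these 22 relations 1 passed, that with Jag1 in learning rats. There r was -0.91 (exact permutation p = 0.00159, adjusted p = 0.0349) and rho -0.96 (exact permutation p = 0.00278) over 7 rats. The rats with the least Rfng signal, replicates 1 and 3, had the most Jag1 signal, and replicate 6, highest in Rfng, had the least. Leaving out 1 learning rat at a time kept r between -0.98 and -0.85, and without the 2 rats farthest from the Rfng median of the group it was -0.80 over 5 rats. Among control rats the sign was opposite, at 0.71 (rho = 0.64; exact permutation p = 0.0728, adjusted p = 0.400), and over both groups r was -0.48 (rho = -0.39; permutation p = 0.146, adjusted p = 0.802). With the probe sets of each gene averaged, r over both groups was -0.76, and 0 correlations of Rfng with other members passed. The difference between the groups was not tested, and Jag1 sits just below the limit of 4. In the same learning rats the astrocyte marker mean gave r = -0.86 with Rfng (exact permutation p = 0.0125, not adjusted) and 0.70 with Jag1 (exact permutation p = 0.0716, not adjusted). In control rats these were 0.10 and 0.35 (exact permutation p = 0.798 and 0.427, not adjusted). Over 14 arrays Rfng and the astrocyte mean gave r = -0.35 (permutation p = 0.185, adjusted p = 0.416). Over 14 arrays Jag1 and the astrocyte mean gave r = 0.48 (rho = 0.58; permutation p = 0.0611 and 0.0270, the former 0.275 adjusted). The part of astrocytes in the Rfng and Jag1 relation was not tested.

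**Figure D4:**
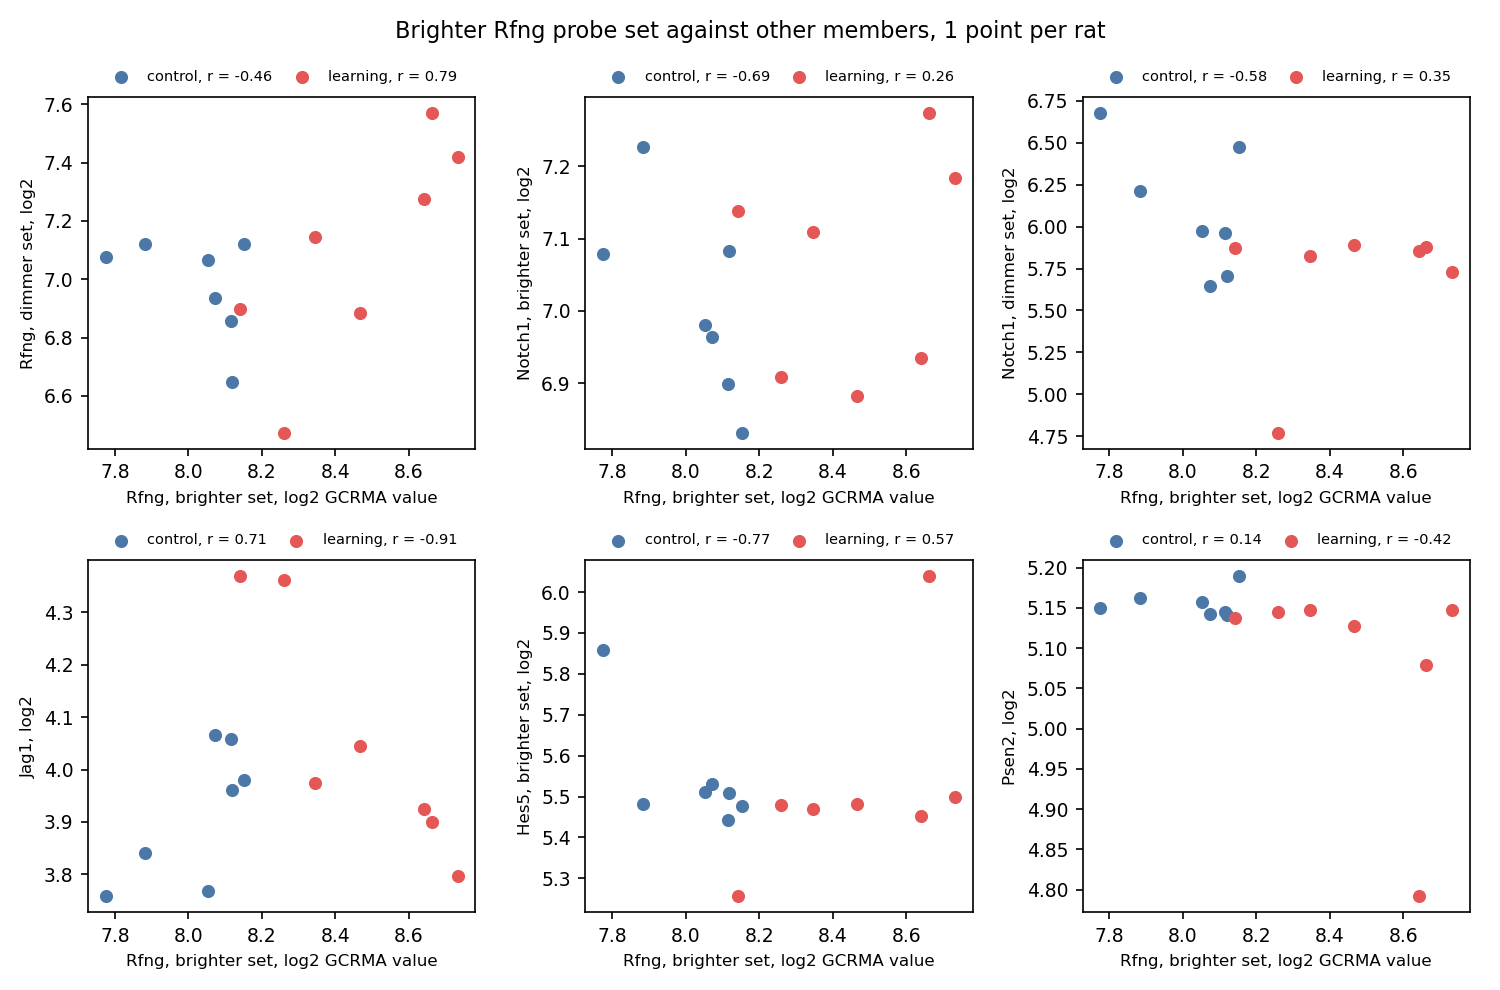
Log2 GCRMA values of the brighter Rfng probe set (x axis) against 6 other member probe sets (y axes), with 1 point per rat, control in blue and learning in red, and Pearson r per group of 7 above each panel. Jag1 falls with Rfng among learning rats (r = -0.91) and rises among control rats (r = 0.71), while the Hes5 and Psen2 panels rest on 1 or 2 rats away from the rest.

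The genes whose within-group pattern was most like that of the brighter Rfng probe set came from 7794 tested probe sets with 1 symbol over 14 arrays. They were Bnip3l, a mitophagy receptor, with r = 0.84, Baiap2, a postsynaptic actin regulator, with 0.82, and Usp21, Edc3 and Xrcc1 with 0.81, 0.81 and 0.79. The most opposed were Usb1 with -0.83, Tiam1, a Rac exchange factor, with -0.81, Lamp2 with -0.79, S1pr1 with -0.79 and Ube2e3 with -0.77. None of the 10 is a gene of the pathway list. They share arrays and normalization with Rfng and are given as a description.

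Markers of other cells differed between the groups in part. Ttr and Enpp2, the 2 measured of 5 listed choroid plexus markers, averaged 6.67 to 7.98 among controls and 6.34 to 6.61 among learners, so that all 7 learning rats lay below every control rat (difference -0.91, exact permutation p = 0.000583, the smallest it can give; adjusted p = 0.00583 over 10 lists). Nearly all of it was Ttr, at -1.78, with Enpp2 at -0.04. The marker lists were chosen with earlier results of these data known, so p here is a description and no independent test. The mean of Ttr and Enpp2 separates the groups fully and varies mostly among controls (SD 0.54 against 0.10 among learners). A fit cannot tell it apart from group, so differences fitted with it are a description only. With this mean as covariate the brighter Rfng difference was 0.63, the dimmer Rfng difference 0.014 and the dimmer Notch1 difference -0.78. The ligand Jag1 was then at 0.30 in place of 0.13, Hes1 at -0.03 in place of -0.12, the brighter Hes5 set at -0.10 in place of -0.02 and the brighter Notch1 set at 0.0094 in place of 0.05. The 3 measured CA1 markers of 5 averaged 0.54 higher in learning rats (adjusted p = 0.109), spanning 5.52 to 7.22 among controls and 6.39 to 7.05 among learners, led by Wfs1 at 0.95 and Mpped1 at 0.37. With the CA1 mean as covariate the brighter Rfng difference was 0.48, that of Jag1 0.08, that of the brighter Notch1 set 0.09 and that of the brighter Hes5 set 0.0020.

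The 4 measured granule cell markers of 7 averaged 0.16 higher in learning rats (exact permutation p = 0.0105, adjusted p = 0.0524), spanning 8.60 to 8.99 among controls and 8.87 to 9.11 among learners. Of the 4 markers 3 were higher and 1 lower, with Calb1 at -0.03, Prox1 at 0.08 and Dsp at 0.44. Without control replicate 5, 6 or 7 or learning replicate 1 the list passed (adjusted p of 0.0447, 0.0408, 0.0321 and 0.0233). It did not pass with any other array left out. Without control replicate 2 the difference was 0.11 (exact permutation test, adjusted p = 0.0991). The CA1 list passed without control replicate 5 (0.72, adjusted p = 0.00291). Astrocyte markers differed by -0.05, mural by -0.09, endothelial by 0.02 (Cldn5 at -0.10 and Slco1a4 at 0.17), meningeal by -0.38 (Ptgds at -0.70 and Slc6a20a at -0.22) and neural progenitor markers by -0.24 (Fabp7 at -0.05 and Vim at -0.62). Oligodendrocyte markers differed by 0.02 (Mbp at 0.11 and Mobp at -0.16) and microglial markers by -0.13 (Ctss at -0.02 and Csf1r at -0.06). None of these 7 lists had an adjusted p below 0.443.

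Within groups, each of the 9 genes was set against the mural, meningeal and astrocyte marker means, and 0 of 27 correlations passed an adjusted p of 0.05. The smallest p belonged to Lfng with the meningeal mean (r = 0.63, rho = 0.55; permutation p = 0.0161, adjusted p = 0.236) and Hes1 with the mural mean (r = 0.57, rho = 0.48; permutation p = 0.0175, adjusted p = 0.236). Lfng with the mural mean had the largest rho (r = 0.60, rho = 0.67; permutation p = 0.0433 and 0.0154, the former 0.275 adjusted). Without the 2 arrays farthest from the marker median these 3 values of r were 0.45, 0.21 and 0.31. Other relations were not steady when 2 arrays were left out in this way, with p not adjusted. Jag1 went from 0.45 to 0.80 with the mural mean (permutation p = 0.00914) and from 0.54 to 0.76 with the meningeal mean (permutation p = 0.00769). Psen2 went from 0.32 to 0.53 with the astrocyte mean (permutation p = 0.00954). Hes5 changed sign with the mural mean, from 0.14 to -0.64 (permutation p = 0.00379). Without learning replicate 4, Jag1 passed with the mural mean (r = 0.74, adjusted p = 0.047) and the meningeal mean (r = 0.77, adjusted p = 0.047). The brighter Rfng set gave r = -0.35 with the astrocyte mean (rho = -0.28; permutation p = 0.185, adjusted p = 0.416) over 14 arrays and -0.09 without 2 arrays.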

How the data were processed

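The authors deposited 1 log2 value per probe set and array, computed with GCRMA per the submitters' processing notes, which name no version. That the scale is log2 was read from the numbers themselves (-0.56 to 15.0, array medians between 5.09 and 5.12). Probe sets were named through the platform annotation, and all 9 gene IDs matched the current rat gene table (GRCr8) with 0 changed symbols. A gene's main probe set is its set of highest mean.

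Learning minus control was fitted over 14 arrays with limma 3.58.1 in R 4.3.3 (lmFit, eBayes), no covariate, on 9387 probe sets averaging 4 or more, and adjusted by Benjamini-Hochberg at 0.05. Standard errors of dimmer members came from the fit without a filter. Correlations and marker means used permutation tests in numpy 2.4.6 and scipy 1.17.1. All were tested on simulated data. Array number limits the precision.

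Genes named were all members, the 6 other pathway genes of smallest p, 5 genes each of highest and lowest correlation with Rfng, and the 2 brightest genes per marker list. Hes6, Rbpj, Mfng, Notch4, Spen, Ncor1 and Dsp fall outside this rule and were named after their values were seen. Members and lists were chosen with earlier results of these data known. Alternatives covered filters, normalization, centring, prior, array weights, a floor, the replicate block, averaged probe sets and each array left out; marker means as covariates were added after seeing the data. The labels give no batch.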

Additional observations from a re-analysis of the deposited data

Results flagged for a closer look

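In 44 groups of 7 values (the 12 member probe sets and 10 marker means, by group), 6 held a rat farther from the rest than the 95% limit of Dixon's ratio, which chance passes in about 1 of 20 groups. On the dimmer Notch1 set learning replicate 3 was at 4.77, with the next lowest at 5.73. On the brighter Hes5 set control replicate 1 was at 5.86 and learning replicate 4 at 6.04, with the next highest at 5.53 and 5.50. On Psen2 control replicate 2 was at 5.19, next to 5.16, and learning replicate 5 at 4.79, next to 5.08. The granule cell marker mean of control replicate 2 was 8.60, with the next lowest at 8.83.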

How the results depend on the processing

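The brighter Rfng difference was positive in all 24 alternatives, and from 0.40 to 0.49 with 1 array left out. It ran from 0.28 with both probe sets averaged to 0.63 with the choroid plexus mean, inseparable from group, as covariate. The replicate block and the floor cannot move it. Since this difference chose the genes, its sign in the same arrays carries no weight of its own. No adjusted call was made among the 21 other pathway genes in any of 27 alternatives. Over all probe sets limma called 0, or 0 to 1 with 1 array left out (1 without control replicate 6, learning replicate 1 or learning replicate 4). At an unadjusted p below 0.05 there were 777 with the choroid plexus mean as covariate. Marker lists called numbered 1 to 3 and member-to-marker correlations 0 to 2 with 1 array left out. No Rfng correlation over 14 arrays was called in 20 alternatives. With the replicate block the adjusted calls were 0. The Rfng difference stays at 0.44 there by construction, since each number holds 1 rat of each group. The labels give the number no shared origin. Deviations of same-numbered rats correlated from -0.28 to 0.26, not above 0.1 in every pair, and the numbers were treated as names only, although 4 of the 7 control rats correlated best with their own number. Whether same-numbered rats share an origin was not tested, and the permutations did not use the number. With the block, r of the brighter Rfng set was 0.84 with the second Rfng set and 0.55 with the dimmer Notch1 set. These rest on differences within the 7 pairs, a measure unlike the 0.50 and 0.0037 over 14 arrays. Dim signal limits Notch2, Notch3, Lfng and the second Hes5 set.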
